A study of Mus musculus with 8 samples.

Results

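The genes described here are 46 members of the machinery that takes a cell from G1 into S phase and copies its DNA, followed across 4 groups of mouse germinal centre B cells. They were taken by name from a table of 23234 genes, with earlier results of these data known, and all 46 were found in it. All 46 also reached the level needed for testing, at least 1 FPKM in at least 2 libraries, as did 10610 genes in all. FPKM counts sequenced fragments relative to transcript length and to all mapped fragments of a library. Levels are thus relative to the total of each library and are not absolute amounts. Comparisons between libraries depend on the scaling, for which alternatives are given below.

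RNA was taken from donor B cells on the C57BL/6 background, each carrying 1 B1-8hi knock-in allele (an antigen receptor that binds NP) and 1 ERT2cre knock-in allele (a tamoxifen-dependent recombinase). One donor genotype was Bach2(+/+) Prdm1(f/f), called sKO here, and the other Bach2(f/f) Prdm1(f/f), called dKO. The floxed alleles were thus those of Prdm1 (Blimp1, the plasma cell factor) in every group and of Bach2 (a transcriptional repressor of B cells) in dKO alone, so no group had Prdm1 without loxP sites. Naive donor cells went into wild-type hosts heterozygous for the CD45 alleles CD45.1 and CD45.2, which kept their own lymphocytes. The hosts received 3 mg tamoxifen for 3 days and then NP-CGG in alum. On day 10, NP-binding GL7+ CD38- donor cells were sorted from the pooled spleens of 5 recipients as light zone cells (LZ, CD86 high and CXCR4 low) or dark zone cells (DZ, CD86 low and CXCR4 high), with about 30000 cells per library. Genotype and zone together make 4 groups with 2 libraries each. The age of the animals, the promoter that drives the recombinase, and whether the 2 libraries of a group came from separate pools are not stated in the labels. The p-values therefore reflect the spread between libraries that may be technical replicates.

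DNA replication is prepared in G1, when CDC6 and CDT1 load the ring-shaped MCM2-7 helicase onto origins, and starts in S phase, when CDC45 and the GINS complex turn that helicase on. Primase and DNA polymerases alpha, delta and epsilon then copy the strands. The PCNA clamp, which replication factor C loads, holds polymerases delta and epsilon to DNA. Many of these genes are switched on together at the G1/S boundary by E2F transcription factors, which cyclin E and its kinase help to release from the retinoblastoma protein. In germinal centres, cells that received help in the LZ enter the cycle there and go on dividing in the DZ.

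Promoters are shown because E2F sites are the textbook link among these genes. The promoter windows ran from 250 bases before to 50 bases after each start, as tabulated from RefSeq for GRCm38.p6, and 37 of the 46 members had one. For 25 of these 37, the first bases from a tabulated start were found in a GENCODE transcript of the gene. For the others the start was not matched in this way. Mcm4, Gins1, Gins2, Gins4, Rfc2, Prim2, Pole, Tipin and Ccne2 had no entry. An E2F-type motif, here any of TTTCCCGC, TTTCGCGC, TTTGCCGC and TTTGGCGC on either strand, was present in 14 of the 37, or 37.8%. The share was 2.6% over all 27025 promoters in the table and 5.01% over the 7472 tested genes that had one. It was 37.5% among 48 promoters of other replication and G1/S genes and 5.0% among 20 promoters of G2/M and mitosis genes. CCAAT, searched on both strands, was present in 59.5% of the members, 41.1% of all promoters and 80.0% of the G2/M promoters. The 200 bases before the start are printed 5′ to 3′ on the gene's strand for 7 of the 8 members with a match there, and for Rfc1, which had none and stands apart in the results below. Capitals mark the matches.
Mcm5: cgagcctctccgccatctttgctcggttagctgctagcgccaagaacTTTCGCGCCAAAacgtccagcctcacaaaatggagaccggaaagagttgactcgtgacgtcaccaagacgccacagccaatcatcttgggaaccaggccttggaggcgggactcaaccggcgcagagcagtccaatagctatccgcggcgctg
Mcm6: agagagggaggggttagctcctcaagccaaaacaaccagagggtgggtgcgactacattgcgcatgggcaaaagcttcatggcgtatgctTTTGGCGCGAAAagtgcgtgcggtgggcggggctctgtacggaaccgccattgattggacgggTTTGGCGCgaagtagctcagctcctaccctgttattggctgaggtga
Mcm7: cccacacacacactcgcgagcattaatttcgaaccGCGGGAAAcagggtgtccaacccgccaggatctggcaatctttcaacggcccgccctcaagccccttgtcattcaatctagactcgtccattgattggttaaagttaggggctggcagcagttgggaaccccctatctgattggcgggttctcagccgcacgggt
Cdc6: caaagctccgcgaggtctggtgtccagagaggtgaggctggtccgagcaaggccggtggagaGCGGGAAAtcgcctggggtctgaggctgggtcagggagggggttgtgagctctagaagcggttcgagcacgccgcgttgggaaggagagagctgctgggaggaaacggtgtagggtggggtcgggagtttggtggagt
Gins3: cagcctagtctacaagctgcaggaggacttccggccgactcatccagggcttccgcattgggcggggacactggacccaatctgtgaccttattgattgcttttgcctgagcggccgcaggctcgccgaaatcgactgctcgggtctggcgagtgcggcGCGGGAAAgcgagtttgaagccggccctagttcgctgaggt
Pola1: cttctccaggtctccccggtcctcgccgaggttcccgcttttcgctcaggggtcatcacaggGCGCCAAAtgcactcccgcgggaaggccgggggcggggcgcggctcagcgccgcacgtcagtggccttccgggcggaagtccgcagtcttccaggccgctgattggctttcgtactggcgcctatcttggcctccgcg
Uhrf1: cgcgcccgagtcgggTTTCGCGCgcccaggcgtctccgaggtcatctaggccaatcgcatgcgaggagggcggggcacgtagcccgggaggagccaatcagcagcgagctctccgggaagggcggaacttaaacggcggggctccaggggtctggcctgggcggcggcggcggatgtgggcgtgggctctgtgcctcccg
Rfc1: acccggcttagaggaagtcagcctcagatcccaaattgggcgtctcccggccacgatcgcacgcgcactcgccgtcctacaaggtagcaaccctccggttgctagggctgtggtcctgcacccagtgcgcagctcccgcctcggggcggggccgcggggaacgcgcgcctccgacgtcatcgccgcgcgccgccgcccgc
These windows lie at Mcm5 chr8:75109309-75109508 (+ strand), Mcm6 chr1:128359706-128359905 (- strand), Mcm7 chr5:138171884-138172083 (- strand), Cdc6 chr11:98907951-98908150 (+ strand), Gins3 chr8:95633359-95633558 (+ strand), Pola1 chrX:93632156-93632355 (- strand), Uhrf1 chr17:56304113-56304312 (+ strand), Rfc1 chr5:65335640-65335839 (- strand). In Mcm5 a pair of matches on opposite strands shared 4 bases, which gives a run of 12 capitals, and Mcm6 held a run of the same kind as well as a separate match. Mcm7, Cdc6 and Gins3 held the reverse complement of TTTCCCGC. In LZ, 11 of the 14 members with a match and 21 of the 23 without one were higher in dKO past the threshold given below. Cdt1, Gins3 and E2f2 had a match and did not pass it. A match describes letters in a window and is no evidence of binding.

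A B cell gene was high in every library, and the sort markers Cd86 and Cxcr4 followed the labelled zones. Cd79a, a B cell receptor subunit, was at 606 to 808 FPKM in all 8 libraries. Cd86 was at 77.4 to 106 FPKM in LZ and 31.3 to 38.4 in DZ, while Cxcr4 was at 73.6 to 78.3 in LZ and 129 to 139 in DZ. Such markers also differed by genotype, at the threshold given below. Of 10 B and germinal centre B cell markers, 5 were lower and 1 higher in dKO in LZ, and 3 lower and 1 higher in DZ. Of 4 zone markers, 3 were lower in dKO in LZ and 1 in DZ, and 0 were higher. Of all tested genes, 12.7% were called lower in LZ and 5.23% in DZ. Bach2 was at 49.8 and 53.4 FPKM in sKO LZ, 64.5 and 62.7 in dKO LZ, 76.2 and 74.6 in sKO DZ, and 96.2 and 94.5 in dKO DZ. It was thus higher in the libraries labelled dKO, and a value over the whole gene does not check a deletion of part of it, so sKO and dKO stand throughout for groups as labelled. Prdm1 was below 1 FPKM in every library. Relative depth, read from ratios between low values, was 1 to 1.1 in LZ and 1.41 to 1.62 in DZ, with sKO LZ replicate 1 set to 1. In these bulk samples, more cells in S phase and more of these RNAs per cell cannot be told apart.

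The replication genes were abundant in all groups and lowest in sKO LZ. Their summed level was 0.56% and 0.538% of all FPKM in sKO LZ, 0.727% and 0.731% in dKO LZ, 0.698% and 0.674% in sKO DZ, and 0.819% and 0.826% in dKO DZ. The dKO libraries were thus above the sKO libraries in both zones, and dKO LZ was above sKO DZ. The median member was at 51.4 and 47.9 FPKM in sKO LZ, 60.7 and 63.0 in dKO LZ, 57.6 and 59.6 in sKO DZ, and 67.8 and 66.9 in dKO DZ. By group mean, 40 members were lowest in sKO LZ, 31 were highest in dKO DZ and 14 were highest in dKO LZ. Rfc1 was the member highest in sKO DZ. The shares of all tested genes lowest or highest in these groups were not counted, so these counts are not shown to exceed them. Across all members the spread within groups was small, with a median SD of 0.0613 on the log2(FPKM + 1) scale.

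**Figure D1:**
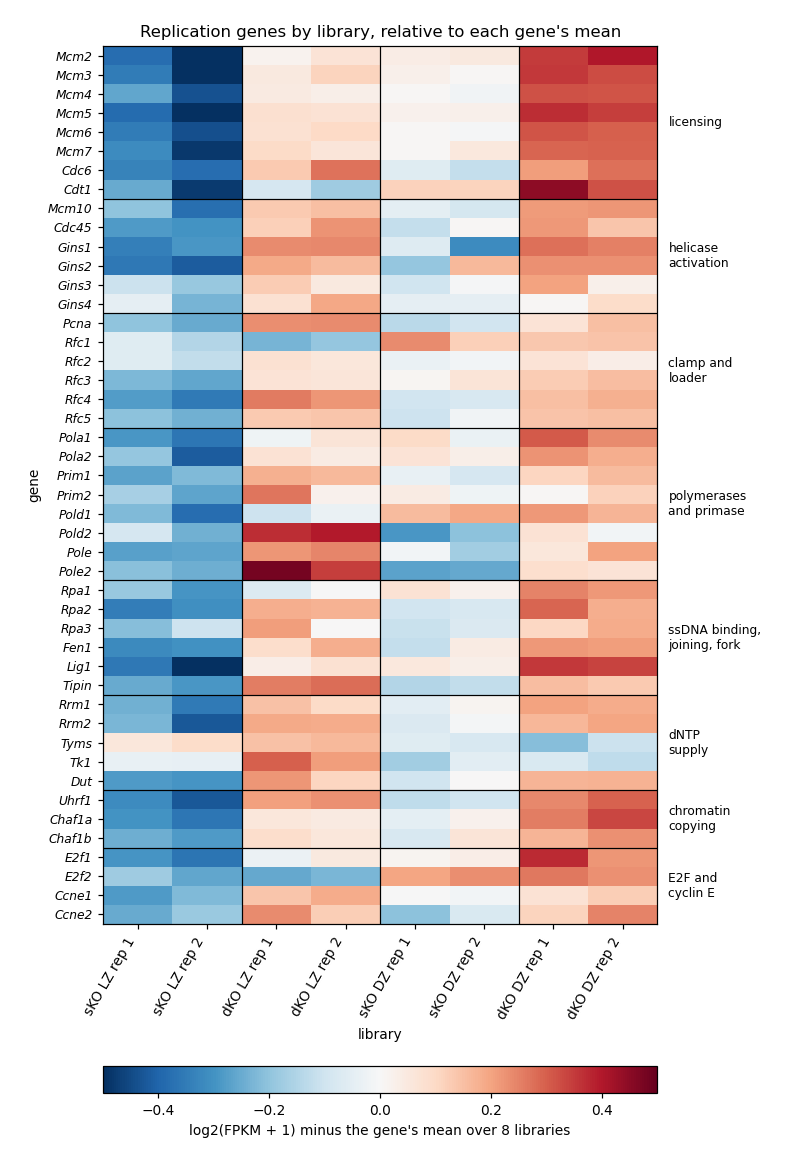
Level of each of the 46 replication genes (rows, grouped by role) in each of the 8 libraries (columns), as log2(FPKM + 1) minus the gene's mean over the libraries; blue is below and red above that mean. The sKO LZ columns are blue for most genes, with replicate 2 the lowest library for 33 of them, and the dKO DZ columns are mostly red. The share of all tested genes lowest in that library was not counted.

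In LZ, 41 of the 46 members rose in dKO, 0 fell and 5 (Cdt1, Gins3, Rfc1, Tyms and E2f2) did not pass the test, an adjusted p under 0.05 by limma with Benjamini-Hochberg adjustment over all genes tested. The background was 31.1% of tested genes called, with 18.4% called higher. The rises ran from 0.16 to 0.64 in log2(FPKM + 1), where dKO is compared with sKO, and the median change was 0.42, against 0.02 over all tested genes. As ratios of group means, all members lay between 0.925 and 1.59, and Cdc6, Pole2 and Uhrf1 were at 1.5 or more. The 2 dKO libraries lay above both sKO libraries for 44 members, beside a background of 36.5%, and below both for 1, Rfc1, beside a background of 29.3%. Among all called genes the share called higher was 59%, and it was 48.1% after upper quartile scaling, under which 38 members rose. Leaving out a dKO LZ library lowered the calls over all genes as well as those among the members. Without dKO LZ replicate 1, 31 members rose, and without dKO LZ replicate 2, 34 did.

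Markers of other cells were summed in each library. The summed level of 9 myeloid markers was 18.2 and 66.1 FPKM in sKO LZ, 29.0 and 153 in dKO LZ, and 5.4 to 9.3 in DZ, with S100a8 and S100a9 leading in dKO LZ replicate 2 and Cd14 at 0 in 6 of 8 libraries. These sums overlapped between the genotypes in LZ, and of the 6 myeloid markers tested there 1 was higher in dKO, 1 lower and 4 did not pass. Without dKO LZ replicate 2, and with sKO LZ replicate 2 kept, the median change of the members was 0.42. The part of myeloid RNA in the results was not tested. The summed level of 7 naive B cell markers, mostly Fcer2a (CD23) and Cr2 (CD21), was 380 and 415 FPKM in sKO LZ, 203 and 212 in dKO LZ, 127 and 121 in sKO DZ, and 62.4 and 63.0 in dKO DZ. It was lower in dKO than in sKO in both zones, with no overlap, and its part in the results was not tested. T cell marker sums of 54.5 to 65.8 FPKM in LZ and 33.1 to 35.7 in DZ were nearly all Lck, with Cd3e at or under 0.08.

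In DZ, 25 members rose in dKO, 0 fell and 21 did not pass. The background was 11.9% of tested genes called, 6.63% higher and 5.23% lower. All 25 had also risen in LZ, a comparison of other libraries whose test shares the estimate of the spread. In LZ 41 of the 46 members had risen, and the share of all genes that rose in both zones was not counted. The overlap is thus not shown to be particular to the members. The rises ran from 0.19 to 0.45 and the median change was 0.24, against 0.01 over all tested genes. Ratios of group means lay between 0.936 and 1.38. Both dKO libraries lay above both sKO libraries for 40 members, beside a background of 32.3%, and below both for 1, Tyms, beside 26.3%. The count of calls rested on single libraries: it was 0 when dKO DZ replicate 1 was left out and 1 when dKO DZ replicate 2 was. Leaving out an sKO DZ library gave 4 (replicate 1) or 9 (replicate 2), while the median change stayed between 0.22 and 0.27. It was also 14 and 13 without dKO LZ replicate 1 or 2. In each of these fits the calls over all genes fell as well, so the falls are not particular to the members. With all libraries, the share of all calls that were higher was 55.9%, or 45.8% after upper quartile scaling, under which 22 members rose.

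**Figure D2:**
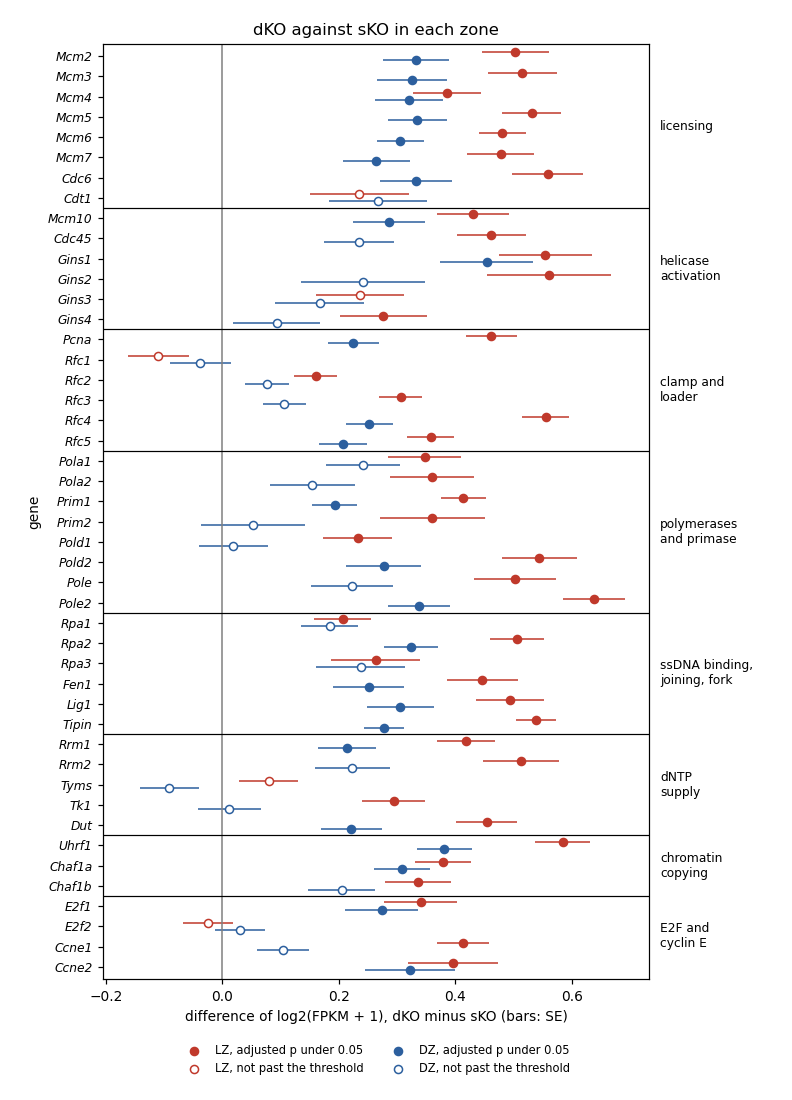
Difference of log2(FPKM + 1) between dKO and sKO for each replication gene (rows, grouped by role) in LZ (red) and DZ (blue), with bars of 1 SE from limma; filled points have an adjusted p under 0.05. Of the 46 genes, 41 are filled in LZ and 25 in DZ, and Rfc1 lies below 0 in both zones.

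All 8 origin licensing genes had positive changes in both zones, and all but Cdt1 passed the test in each. Mcm2, a helicase subunit, was at 78.7 and 70.5 FPKM in sKO LZ, 104 and 108 in dKO LZ, 106 and 106 in sKO DZ, and 131 and 136 in dKO DZ. Its sKO LZ libraries were lowest, its dKO DZ libraries highest, and dKO LZ overlapped sKO DZ. Mcm2 rose by 0.50 ± 0.06 (SE; adjusted p = 0.00208, limma) in LZ and by 0.33 ± 0.06 (adjusted p = 0.018) in DZ.

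Mcm5, whose promoter held the overlapping pair of matches, was at 115 and 104 FPKM in sKO LZ, 159 and 158 in dKO LZ, 153 and 153 in sKO DZ, and 194 and 192 in dKO DZ. The 4 groups did not overlap. It rose by 0.53 ± 0.05 (limma, adjusted p = 0.00134) in LZ and by 0.33 ± 0.05 (adjusted p = 0.013) in DZ. Mcm7 was at 125 and 111 FPKM in sKO LZ, 167 and 163 in dKO LZ, 156 and 162 in sKO DZ, and 191 and 191 in dKO DZ. Its groups also stayed apart, with dKO LZ just above sKO DZ, and it rose by 0.48 ± 0.06 in LZ and 0.26 ± 0.06 in DZ, the latter lost in 9 of 17 alternatives. Of the summed RNA level of Mcm2 to Mcm7, Mcm6 made up the largest share in every library, at 23.5% to 24.8%. Mcm2 made up the smallest, at 11.1% to 12.2%. These are shares of RNA and not of the protein complex.

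Of the loading factors, Cdc6 passed the test in both zones and Cdt1 in neither. Cdc6 was the scarcest licensing gene, at 15.6 and 15.0 FPKM in sKO LZ, 21.9 and 24.2 in dKO LZ, 19.02 and 18.2 in sKO DZ, and 23.1 and 24.3 in dKO DZ. Its dKO libraries were above all sKO libraries in both zones, and it rose by 0.56 ± 0.06 (limma, adjusted p = 0.00191) in LZ and by 0.33 ± 0.06 (adjusted p = 0.0217) in DZ. Cdt1 was at 27.9 and 23.7 FPKM in sKO LZ, 31.5 and 29.5 in dKO LZ, 36.3 and 36.2 in sKO DZ, and 45.9 and 41.9 in dKO DZ. Every DZ library of Cdt1 was above every LZ library. Its genotype changes of 0.24 ± 0.08 in LZ (limma, adjusted p = 0.077) and 0.27 ± 0.08 in DZ (adjusted p = 0.0936) did not pass the test.

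Among the 6 genes of helicase activation, 5 rose in LZ and 2, Mcm10 and Gins1, in DZ. The DZ call of Mcm10 was lost in 8 of 17 alternatives. Gins1, a subunit of the 4-gene GINS complex, was at 22.4 and 23.2 FPKM in sKO LZ, 33.9 and 34.0 in dKO LZ, 27.3 and 22.8 in sKO DZ, and 34.9 and 34.2 in dKO DZ. It split by genotype in both zones and had the largest rise of any member in DZ, 0.45 ± 0.08 (limma, adjusted p = 0.0191), beside 0.55 ± 0.08 in LZ. Gins2 was at 27.8 and 26.7 FPKM in sKO LZ, 41.1 and 40.2 in dKO LZ, 31.3 and 40.4 in sKO DZ, and 42.3 and 42.2 in dKO DZ. Its sKO DZ libraries lay far apart, and it rose by 0.56 ± 0.11 (limma, adjusted p = 0.00995) in LZ, a call lost without dKO LZ replicate 1 (adjusted p = 0.0548). Gins3 changed by 0.24 ± 0.08 in LZ (adjusted p = 0.057), and Gins4, which did pass in LZ, lost its call in 12 of 17 alternatives.

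Of the 6 clamp and loader genes, 5 rose in LZ and 3 (Pcna, Rfc4 and Rfc5) in DZ. Rfc5 lost its DZ call in 7 of 17 alternatives. Pcna, the clamp and the most abundant member, was at 436.5 and 421.5 FPKM in sKO LZ, 590.5 and 591.5 in dKO LZ, 457 and 471 in sKO DZ, and 527 and 558 in dKO DZ. Its highest libraries were those of dKO LZ, and the groups did not overlap. It rose by 0.46 ± 0.04 (limma, adjusted p = 0.00134) in LZ and by 0.22 ± 0.04 (adjusted p = 0.025) in DZ, where 9 of 17 alternatives lost the call. Rfc4, a small loader subunit chosen after its values were seen, was at 52.6 and 49.9 FPKM in sKO LZ, 76.7 and 74.7 in dKO LZ, 59.8 and 60.6 in sKO DZ, and 71.1 and 72.6 in dKO DZ. It rose by 0.56 ± 0.04 (limma, adjusted p = 0.000887) in LZ and by 0.25 ± 0.04 (adjusted p = 0.0147) in DZ, with no overlap between groups.

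Rfc1, the large loader subunit, had negative changes in both zones that did not pass the test. It was at 88.1 and 82.9 FPKM in sKO LZ, 78.1 and 80.1 in dKO LZ, 108 and 99.8 in sKO DZ, and 101 and 102 in dKO DZ. Its dKO LZ libraries were the lowest of all 8, and its DZ genotypes overlapped. The changes of -0.11 ± 0.05 in LZ (limma, adjusted p = 0.157) and -0.04 ± 0.05 in DZ (adjusted p = 0.70) stood beside these levels, and the LZ change did pass after quantile normalization (adjusted p = 0.0421). Rfc1 made up 17.5% and 18.1% of the summed level of the loader's 5 genes in dKO LZ and 21.7% to 25% in the other libraries.

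All 8 polymerase and primase genes rose in LZ, by 0.23 to 0.64, and 3 (Prim1, Pold2 and Pole2) in DZ, where the call of Prim1 was lost in 11 of 17 alternatives. Pole2, a subunit of polymerase epsilon, was at 20.51 and 19.98 FPKM in sKO LZ, 33.6 and 30.6 in dKO LZ, 19.6 and 19.8 in sKO DZ, and 25.3 and 25.05 in dKO DZ. The 4 sKO libraries lay between 19.6 and 20.5 FPKM, and the dKO LZ libraries were the highest. Its rise of 0.64 ± 0.05 (limma, adjusted p = 0.00107) was the largest of any member in LZ, and in DZ it was 0.34 ± 0.05 (adjusted p = 0.0142). Pold2, a subunit of polymerase delta chosen after its values were seen, was at 28.9 and 25.8 FPKM in sKO LZ, 39.9 and 40.7 in dKO LZ, 24.9 and 26.5 in sKO DZ, and 32.3 and 30.4 in dKO DZ. It was also highest in dKO LZ and rose by 0.54 ± 0.07 (limma, adjusted p = 0.00235) there and by 0.28 ± 0.07 (adjusted p = 0.0431) in DZ, a call lost in 10 of 17 alternatives. The catalytic subunit Pold1 had a smaller rise in LZ, 0.23 ± 0.06 (adjusted p = 0.0279), lost in 7 of 17 alternatives.

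The 6 genes for single-strand binding, strand joining and fork protection all rose in LZ, by 0.21 to 0.54, and 4 rose in DZ. The DZ call of Fen1, 1 of these 4, was lost in 12 of 17 alternatives. Lig1, the ligase that seals Okazaki fragments, was at 71.9 and 63.8 FPKM in sKO LZ, 94.3 and 97.3 in dKO LZ, 95.7 and 94.1 in sKO DZ, and 118 and 117 in dKO DZ. It was lowest in sKO LZ and highest in dKO DZ, with the other groups overlapping, and rose by 0.49 ± 0.06 (limma, adjusted p = 0.00226) in LZ. Tipin, a fork protection factor chosen after its values were seen, was at 86.0 and 83.6 FPKM in sKO LZ, 123 and 125 in dKO LZ, 92.5 and 94.1 in sKO DZ, and 114 and 112 in dKO DZ. It was highest in dKO LZ, with no overlap between groups, and rose by 0.54 ± 0.03 (limma, adjusted p = 0.000884) in LZ and by 0.28 ± 0.03 (adjusted p = 0.00821) in DZ. Rpa1 and Rpa3, of the single-strand binding complex, passed in LZ and lost their calls in 6 and 14 of 17 alternatives.

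In deoxynucleotide supply, 4 of 5 genes rose in LZ and 2 (Rrm1 and Dut) in DZ, where 10 and 12 of 17 alternatives lost the call. Rrm2, the small subunit of ribonucleotide reductase, was at 137 and 120 FPKM in sKO LZ, 184 and 183 in dKO LZ, 153 and 160 in sKO DZ, and 181 and 185 in dKO DZ. Its dKO libraries lay between 181 and 185 in both zones, above all sKO libraries. It rose by 0.51 ± 0.07 (limma, adjusted p = 0.0028) in LZ, and its DZ change of 0.22 ± 0.07 did not pass (adjusted p = 0.0773). Tk1, thymidine kinase, was at 73.5 and 73.3 FPKM in sKO LZ, 93.1 and 87.5 in dKO LZ, 66.8 and 72.7 in sKO DZ, and 71.6 and 69.0 in dKO DZ. It was raised in dKO LZ and overlapped between genotypes in DZ, with changes of 0.29 ± 0.05 (limma, adjusted p = 0.00906) in LZ and 0.01 ± 0.05 (adjusted p = 0.918) in DZ. Tyms, thymidylate synthase, chosen after its values were seen, was at 17.58 and 18.03 FPKM in sKO LZ, 18.74 and 18.98 in dKO LZ, 16.1 and 15.9 in sKO DZ, and 14.4 and 15.6 in dKO DZ. Neither genotype change, 0.08 ± 0.05 in LZ (adjusted p = 0.277) or -0.09 ± 0.05 in DZ (adjusted p = 0.30), passed.

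Chromatin copying and the G1/S regulators completed the set. Uhrf1, which brings DNA methylation to newly copied strands, was at 93.4 and 86.4 FPKM in sKO LZ, 134 and 136 in dKO LZ, 106 and 108 in sKO DZ, and 138 and 143 in dKO DZ. Every dKO library was above every sKO library, and it rose by 0.58 ± 0.05 (limma, adjusted p = 0.000979) in LZ and by 0.38 ± 0.05 (adjusted p = 0.0081) in DZ. Chaf1a and Chaf1b, subunits of the chromatin assembly factor that deposits histones behind the fork, rose by 0.38 ± 0.05 and 0.34 ± 0.06 in LZ, and Chaf1a also rose in DZ.

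Of the 2 E2F genes of the set, E2f1 rose in both zones and E2f2 passed in neither. E2f1 was at 23.8 and 22.6 FPKM in sKO LZ, 28.8 and 30.5 in dKO LZ, 29.7 and 30.1 in sKO DZ, and 38.4 and 34.4 in dKO DZ. The dKO libraries were above the sKO libraries within each zone. It rose by 0.34 ± 0.06 (limma, adjusted p = 0.00906) in LZ and by 0.27 ± 0.06 (adjusted p = 0.0402) in DZ, where the call was lost in 11 of 17 alternatives. E2f2 was at 37.5 and 35.4 FPKM in sKO LZ, 35.4 and 36.1 in dKO LZ, 48.8 and 50.1 in sKO DZ, and 51.1 and 49.9 in dKO DZ. It separated the zones and overlapped between genotypes in both, with changes of -0.02 ± 0.04 (limma, adjusted p = 0.706) in LZ and 0.03 ± 0.04 (adjusted p = 0.709) in DZ.

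The cyclin E genes rose in LZ. Ccne1 was at 17.6 and 18.4 FPKM in sKO LZ, 23.9 and 24.7 in dKO LZ, 21.6 and 21.4 in sKO DZ, and 22.8 and 23.6 in dKO DZ. It was lowest in sKO LZ and rose there by 0.41 ± 0.05 with dKO (limma, adjusted p = 0.00191), while its DZ change of 0.10 ± 0.05 did not pass (adjusted p = 0.195). Ccne2 was at 9.06 and 9.53 FPKM in sKO LZ, 13.08 and 12.02 in dKO LZ, 9.37 and 10.3 in sKO DZ, and 11.9 and 13.2 in dKO DZ. Its libraries split by genotype and not by zone, with rises of 0.40 ± 0.08 (limma, adjusted p = 0.011) in LZ and 0.32 ± 0.08 (adjusted p = 0.0451) in DZ, the latter lost in 14 of 17 alternatives.

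**Figure D3:**
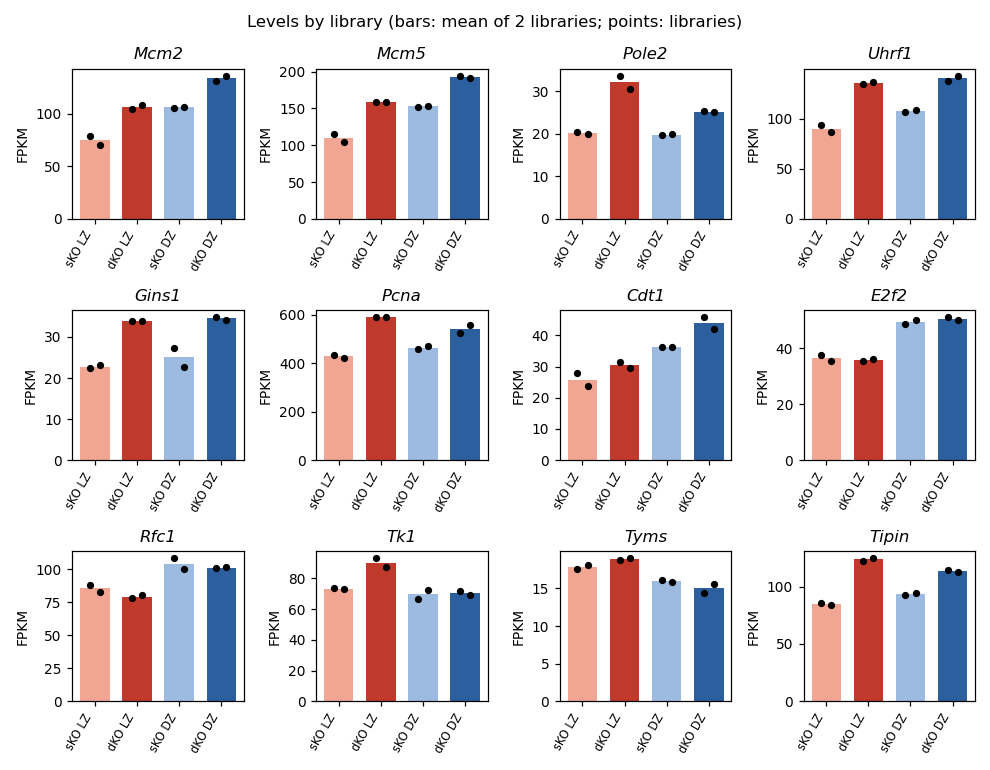
FPKM of 12 replication genes in each group, with points for the 2 libraries and bars for their mean. Mcm2, Mcm5 and Cdt1 are lowest in sKO LZ and highest in dKO DZ, Pole2, Pcna, Tk1 and Tipin are highest in dKO LZ, and E2f2 and Rfc1 follow the zone.

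The zone comparison asks how these genes differ between cells sorted as LZ and as DZ. In sKO, 33 members were lower in LZ past the threshold, 0 were higher and 13 did not pass. The background was 31.2% of tested genes called, with 16.1% called lower. Both LZ libraries lay below both DZ libraries for 39 members, beside a background of 33.1%, and above them for 3, beside 32.7%. The median change, LZ against DZ, was -0.26, against -0.0045 over all tested genes. All 8 licensing genes fell, by 0.27 to 0.50 on the log2 scale, and so did all 3 chromatin genes. Counts in the other roles were 3 of 6 for helicase activation, 4 of 6 for clamp and loader, 4 of 8 for polymerases and primase, 5 of 6 for strand joining and fork genes, 3 of 5 for nucleotide supply and 3 of 4 for E2F and cyclin E genes. The largest falls were those of Mcm2 (-0.50 ± 0.06, adjusted p = 0.00159, limma), Lig1 (-0.48 ± 0.06), Mcm5 (-0.48 ± 0.05) and Cdt1 (-0.48 ± 0.08). This comparison and the genotype comparison in LZ share the sKO LZ libraries, in which 40 members had their lowest mean. A fit of the 4 sKO libraries alone called 18 members lower. The DZ libraries were also the deeper ones, and the part of depth was not tested.

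In dKO, 15 members were lower in LZ, 5 were higher and 26 did not pass, and the median change was -0.05, against 0.01 over all tested genes. The background was 34.1% of tested genes called, 18% higher and 16.1% lower. The LZ libraries lay below the DZ libraries without overlap for 26 members, beside a background of 35.5%, and above them for 10, beside 37.7%. The 15 were Mcm2 to Mcm7, Cdt1, Rfc1, Pola1, Pold1, Rpa1, Lig1, Chaf1a, E2f1 and E2f2, and all of them were also lower in sKO. The share of all tested genes lower in LZ in both genotypes was not counted. E2f2 fell by 0.49 ± 0.04 (limma, adjusted p = 0.000526) and Rfc1 by 0.35 ± 0.05 (adjusted p = 0.00347). The 5 higher in LZ were Tk1 (0.36 ± 0.05, adjusted p = 0.00378), Pold2 (0.35 ± 0.07), Pole2 (0.34 ± 0.05), Tyms (0.32 ± 0.05) and Tipin (0.12 ± 0.03, adjusted p = 0.0347). The call of Tipin was lost in 7 of 17 alternatives, among them the replicate block and upper quartile scaling. None of the helicase activation genes passed. The count of lower members was 6 without dKO LZ replicate 1, 6 without dKO DZ replicate 1 and 8 without dKO DZ replicate 2. It was 10 without dKO LZ replicate 2, of 15 with all libraries, and the count of higher members was 3 without dKO DZ replicate 2.

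**Figure D4:**
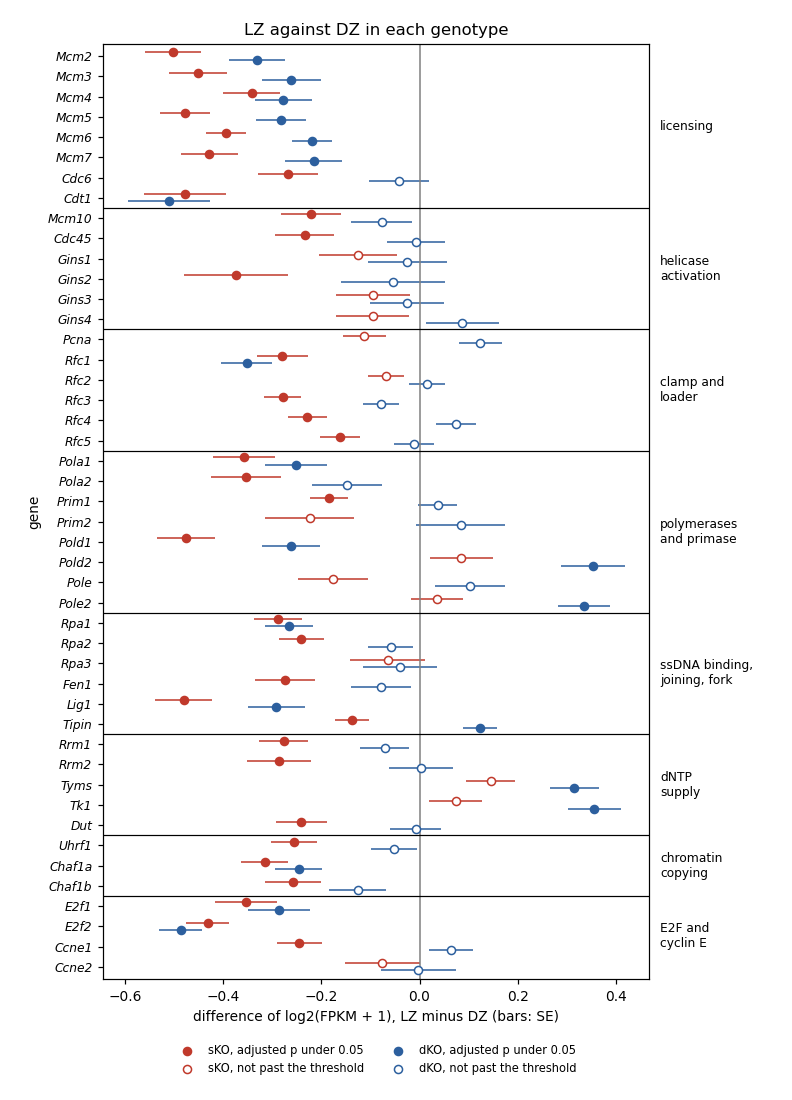
Difference of log2(FPKM + 1) between LZ and DZ for each replication gene (rows, grouped by role) in sKO (red) and dKO (blue), with bars of 1 SE from limma; filled points have an adjusted p under 0.05. In sKO 33 genes are filled below 0, and in dKO 15 are filled below 0 and 5 above it.

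Whether the genotype effect differs between zones was tested directly. The difference, LZ minus DZ, was above 0 for 43 of 46 members, beside 5659 of all 10610 tested genes. The members share the same libraries, so 43 is no count of independent results. Their median difference was 0.19, against 0.01 over all tested genes, and 0 members passed the test of the difference (adjusted p from 0.297 to 0.95, limma). The background at that threshold was 0.0283% of tested genes called. At an unadjusted p under 0.05 there were 23 members, beside 11.6% of all tested genes. The 16 members called in LZ and not in DZ are therefore not shown to differ between the zones. The median difference was 0.13 without sKO LZ replicate 2, the library in which 33 members were lowest.

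Other replication and G1/S genes mostly rose in dKO as well in LZ. Of 59 such genes, all tested, 44 rose in dKO in LZ and 3 (Pold4, E2f5 and Rbl2) fell, and in DZ 24 rose and 1 fell. Their median changes were 0.34 and 0.20, beside 0.42 and 0.24 for the members. Those with the smallest p in LZ were Nasp, a histone chaperone (0.46 ± 0.03, adjusted p = 0.000887, limma), Dnmt1, the maintenance DNA methyltransferase (0.49 ± 0.04), Dctpp1 (0.67 ± 0.05) and Fbxo5 (0.41 ± 0.04). By zone, 28 were lower and 1 higher in LZ in sKO, and 12 were lower and 7 higher in dKO.

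G2/M and mitosis genes had smaller changes by genotype and larger ones by zone. Of 24, all tested, 12 rose in dKO in LZ and 3 in DZ, with median changes of 0.23 and 0.10, led by Bub1 (0.41 ± 0.05, adjusted p = 0.00229, limma) and Top2a (0.41 ± 0.05) in LZ. In LZ against DZ, all 24 were lower in sKO and 18 in dKO, with medians of -0.58 and -0.42. The members' medians in those comparisons were -0.26 and -0.05. No test was made between the lists.

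**Figure D5:**
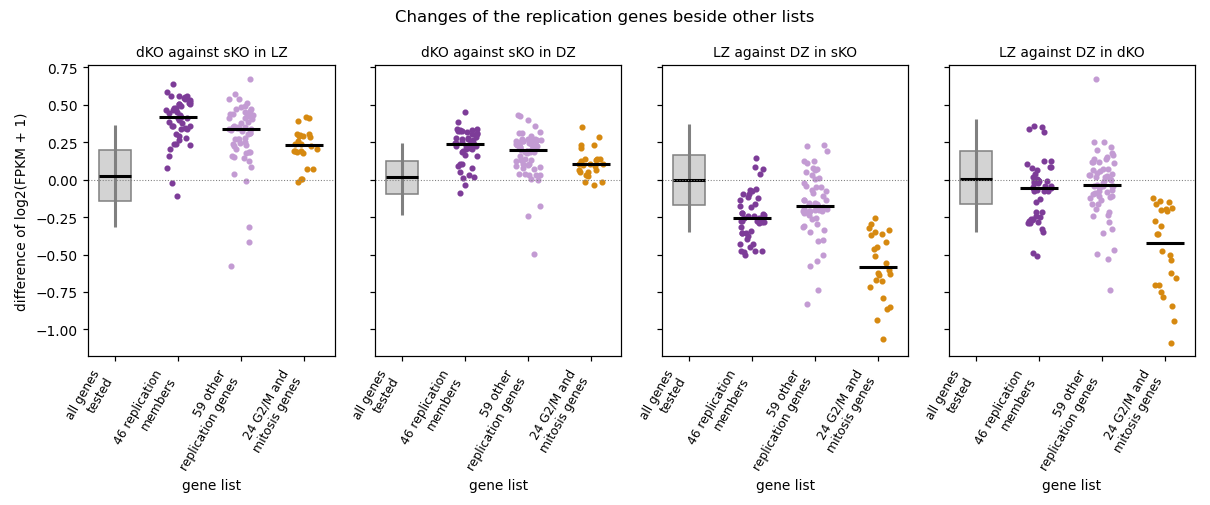
Differences of log2(FPKM + 1) in 4 comparisons for the 46 replication members, 59 other replication genes and 24 G2/M genes (points, with black lines at the medians) beside all 10610 tested genes (box from the 25th to the 75th percentile, whiskers at the 10th and 90th). The members' median is 0.42 and 0.24 by genotype and -0.26 and -0.05 by zone.

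Some members can share reads with another gene. In the GENCODE M21 annotation of GRCm38, which is not the build of these files, exons of Chaf1a overlap Ubxn6 on the opposite strand over 4648 bases, those of Gins2 overlap Gse1 over 2758 bases, those of Fen1 overlap the antisense gene Gm10143 over 1909 bases, and those of Rfc2 overlap Lat2 over 952 bases. Shorter overlaps with coding genes involve Ccne2, Cdc45, Fen1, Lig1, Mcm7, Pole2, Rfc4, Rfc5 and Tk1. Pcna and Tyms have named processed pseudogenes. No strand-specific counting is stated, so the values of these genes are uncertain to that extent.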

How the data were processed

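RNA libraries were made with an NEBNext Ultra kit from sorted cells, per the labels' protocols. The authors deposited 1 table of FPKM values for 23234 genes and 8 libraries, and 0 columns were unmatched to a sample. TopHat2 2.0.8, Cufflinks 2.1.1 and mm9 are named in the submitters' processing notes; options and annotation are not given in the sources used here. Absolute depth is unknown.

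Values were taken as log2(FPKM + 1), with a pseudocount of 1, which understates changes of low genes. Genes reaching 1 FPKM in 2 or more libraries entered a limma 3.58.1 fit (R 4.3.3) of 4 group means with a variance trend on intensity, 4 residual and 2.46 prior degrees of freedom. Tests were 2-sided, with Benjamini-Hochberg adjustment over 10610 genes and a threshold of 0.05. As a check of the code, the fit was run on data simulated with independent noise for each gene and library. That run does not cover replicates that are technical or shifts shared by the genes of a library. Members, lists, tests and the naming rule were chosen with earlier results of these data known. Genes given in full were the 4 largest called changes in each direction by genotype and in sKO by zone, the 3 smallest p in dKO by zone, members against the majority in LZ, and E2f1, Ccne1, Ccne2, Cdt1, Cdc6, Pcna, Mcm2, Mcm7 and Rrm2. Alternatives were a replicate block, pseudocount 0.1, other filters, 3 scalings, no trend, only the libraries compared, and each library left out. Some results on genes outside the members are not reported here.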

Additional observations from a re-analysis of the deposited data

Results flagged for a closer look

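In 7 members, every library of a group moved one way under a contrast in one zone or genotype and the opposite way in the other. For 6 of them, both LZ libraries were below both DZ libraries in sKO and above them in dKO. Over all tested genes, LZ lay below DZ without overlap for 33.1% in sKO and above it for 37.7% in dKO. The share of all genes with both was not counted, so the 6 are not shown to exceed it. The differences between genotypes of the LZ against DZ change were 0.24 for Pcna, 0.30 for Rfc4, 0.22 for Prim1, 0.28 for Pole, 0.26 for Tipin and 0.31 for Ccne1 (log2 scale). For Tyms, dKO was above sKO in LZ and below it in DZ, with a difference of 0.17. Each of these had its own background over all tested genes, 36.5% above in LZ and 26.3% below in DZ. The tests of these differences gave adjusted p-values by limma of 0.336 for Pcna, 0.297 for Rfc4, 0.336 for Prim1, 0.392 for Pole, 0.297 for Tipin, 0.317 for Ccne1 and 0.429 for Tyms, so none passed the threshold.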

How the results depend on the processing

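No member past the threshold changed sign under any of the alternatives run. In DZ the count of members that rose in dKO, 25 in the reported fit, was 15 with the replicate block, 16 without the intensity trend and 15 with only the libraries compared, where 772 genes in all were called in place of 1258. With only the libraries compared, 18 members and 1895 genes were called by zone in sKO in place of 33 and 3312. By genotype in LZ, 35 members and 2369 genes were called in place of 41 and 3299. By zone in dKO such a fit called more, 16 members lower in place of 15 and 4039 genes in place of 3623. Quantile normalization made 1 member, Rfc1, lower in LZ in dKO and gave a median difference of the genotype effect between zones of 0.12. Without a filter on low values, 5 genes were called for that difference in place of 3. The causes of these shifts were not tested. The replicate numbers were not treated as pairs: the labels do not say that they pair, and deviations of same-numbered libraries correlated by -0.108 to 0.124.

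With each library left out in turn, a lone library being assumed to vary like the other groups, the members that rose in dKO numbered 31 to 41 in LZ and 0 to 25 in DZ, with 1703 to 3158 and 112 to 1346 genes called in all. By zone, 24 to 30 members were lower in sKO (2006 to 3032 genes called). In dKO, 6 to 16 were lower and 3 to 5 higher (2007 to 3864 genes). For the difference of the genotype effects, 2 to 6 genes were called and the median over members was 0.13 to 0.24. Calls rest on 2 libraries a group, and absolute depth is unknown.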
